A study of Homo sapiens with 4 samples.

Results

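This report covers m6A peaks on the mRNAs of F-box proteins and of deubiquitinases of the USP and OTUD families in KYSE180 cells that carried either a control shRNA or METTL3 shRNA. Members were all genes of the deposited peak lists whose name starts with FBXL, FBXO or FBXW and a digit (F-box), or with USP or OTUD and a digit (deubiquitinases). This rule found 67 of the 6648 genes with a peak in either list, of which 31 were F-box genes and 36 were USP or OTUD genes. KYSE180 is an established human oesophageal squamous cell carcinoma (ESCC) line, named K180 in the sample labels. 1 group of cells carried a control shRNA and the other METTL3 shRNA, which targets the catalytic subunit of the main m6A methyltransferase of mRNA. In each group an antibody to m6A was used to pull down mRNA fragments, which gave 1 IP library, and 1 input library was made from the RNA before this step, so each of the 2 groups has a single value for each peak. Without replicates, differences between the groups were not tested, and no p-value is given. Intervals in the text are 95% exact binomial (Clopper-Pearson) intervals, which cover counting error over peaks only.

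Ubiquitin marks proteins for degradation or alters their activity. F-box proteins are the interchangeable substrate receptors of SCF ubiquitin ligases, in which SKP1, CUL1 and RBX1 form the core: the F-box binds SKP1, and leucine-rich repeats (FBXL), WD40 repeats (FBXW) or other domains (FBXO) bind the substrate. USP and OTUD enzymes are cysteine proteases that remove ubiquitin and so act in the opposite direction. The mark m6A, which METTL3 writes mainly in the sequence RRACH (R, A or G; H, A, C or U), is known to affect the stability and translation of an mRNA. METTL3 loss in other cells is known to lower m6A at many sites, but a peak list shows where IP reads stood above input, not how many molecules carried the mark.

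The control list held 7549 peaks in 5326 genes and the shMETTL3 list 6108 peaks in 4491 genes. Reads per library are not known here, and a difference in depth between the groups cannot be told apart from a difference in m6A. METTL3 had 0 peaks in both lists, and mRNA levels are not part of these lists, so the depletion itself could not be checked from them. The authors report that METTL3 depletion lowered total m6A in KYSE180 cells, a measurement outside these lists. Of 12 squamous markers, 10 had a peak, with KRT5 and PERP the exceptions. Of 4 markers of other cell types only COL1A1 had one, in the control list. A true m6A peak needs an mRNA that is present and methylated, but listed peaks have false discovery rates of up to 100%. A gene without a peak may be not expressed, not methylated or covered by too few reads, or its peaks may be among those not listed.

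The sequences below show the GRACU closest to the centre of the peak in members with a strong peak in at least 1 list. GRACU (GAACU or GGACU) is a form of the RRACH motif. The closest GRACU was not always near the centre. It lay at -6 nt in the FBXW7 control peak, but at -284 nt in FBXO5 and -220 nt in USP22. Each is the spliced strand of the mRNA from 5′ to 3′, with T for U, the motif in capitals and 8 bases on either side. Positions are those of hg19 (GRCh37). The first group comes from peaks that both lists held, the second from peaks of the control list only and the third from peaks of the shMETTL3 list only.
FBXW7, shared, chr4:153332677-153332697, minus strand: gtagatgaGGACTcctcagga
FBXL12, shared, chr19:9921575-9921595, minus strand: gagtctatGGACTggtggatg
FBXO5, shared, chr6:153296673-153296693, minus strand: ttcattccGGACTtaaactgg
USP25, shared, chr21:17250991-17251011, plus strand: tttaaccgGAACTgatgtata
USP36, shared, chr17:76793401-76793421, minus strand: cttttatgGAACTcgagaggg
FBXO31, lost, chr16:87362393-87362413, minus strand: ggaggttgGGACTctccatct
FBXO10, lost, chr9:37541484-37541504, minus strand: aatgccttGGACTtggagtct
FBXL19, lost, chr16:30941520-30941540, plus strand: tcctcctcGGACTcagactcc
USP22, lost, chr17:20905843-20905863, minus strand: agagtatgGAACTcttcacct
USP42, lost, chr7:6200717-6200737, plus strand: ctgtttttGAACTttgtggaa
FBXL4, gained, chr6:99323486-99323506, minus strand: gaatagcaGAACTggcttctg
FBXO2, gained, chr1:11708516-11708536, minus strand: gtgagcttGGACTggacccac
USP30, gained, chr12:109525297-109525317, plus strand: ggcagcttGAACTgtacggtc
USP21, gained, chr1:161130773-161130793, plus strand: agcagtggGGACTtgcgtcca
Only peaks that hold a GRACU could be shown here. A match is a description of the letters and does not show that the adenosine was methylated.

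The numbers of peaks on these mRNAs were similar in the 2 lists, although the shMETTL3 list was shorter. The members had 70 control peaks in 50 genes and 74 shMETTL3 peaks in 53 genes. This was 0.927% (0.724 to 1.17%) of the control list and 1.21% (0.952 to 1.52%) of the shMETTL3 list, and these intervals overlap. F-box mRNAs had 30 control peaks in 24 genes and 35 shMETTL3 peaks in 25 genes, and USP and OTUD mRNAs had 40 in 26 genes and 39 in 28 genes. The whole list changed by -19.1% between the groups, against 16.7% for F-box peaks and -2.5% for deubiquitinase peaks. These changes rest on few member peaks. F-box peaks made up 0.397% (0.268 to 0.567%) of the control list and 0.573% (0.399 to 0.796%) of the shMETTL3 list. Deubiquitinase peaks made up 0.530% (0.379 to 0.721%) and 0.639% (0.454 to 0.872%). Within each family the intervals overlap, and a difference from the whole list was not tested.

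A control peak was called lost if no shMETTL3 peak overlapped it by 1 bp or more, a shMETTL3 peak was called gained if no control peak did, and all others were called shared. Of the 70 control peaks, 34 were lost, which is 48.6% (36.4 to 60.8%) against 56.2% of all control peaks. For F-box mRNAs 14 of 30 were lost (46.7%, 28.3 to 65.7%), and for deubiquitinase mRNAs 20 of 40 (50%, 33.8 to 66.2%). Of the 74 shMETTL3 peaks, 36 were gained, which is 48.6% (36.9 to 60.6%) against 45.2% of all shMETTL3 peaks. The gained share was 17 of 35 for F-box mRNAs (48.6%, 31.4 to 66.0%) and 19 of 39 for deubiquitinase mRNAs (48.7%, 32.4 to 65.2%). Each of these intervals holds the value of the whole list, so a difference of either family from other mRNAs was not detectable with all peaks kept. With only the 50% of peaks of best score in each list, 9 of 21 F-box control peaks were lost (42.9%, 21.8 to 65.98%), an interval that ends just below the 66.2% of all such peaks, and 7 of 19 F-box shMETTL3 peaks were gained (36.8%, 16.3 to 61.6%, against 57.9%). In the same setting 14 of 20 deubiquitinase peaks were lost and 14 of 20 gained (70% each, 45.7 to 88.1%). Both lists were cut before the overlap here, so a peak whose partner fell below the cut also counted as lost or gained. Among the subfamilies the lost peaks were 3 of 7 for FBXL, 11 of 20 for FBXO, 0 of 3 for FBXW, 20 of 38 for USP and 0 of 2 for OTUD, and the gained peaks 7 of 11, 8 of 19, 2 of 5, 16 of 34 and 3 of 5.

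**Figure D1:**
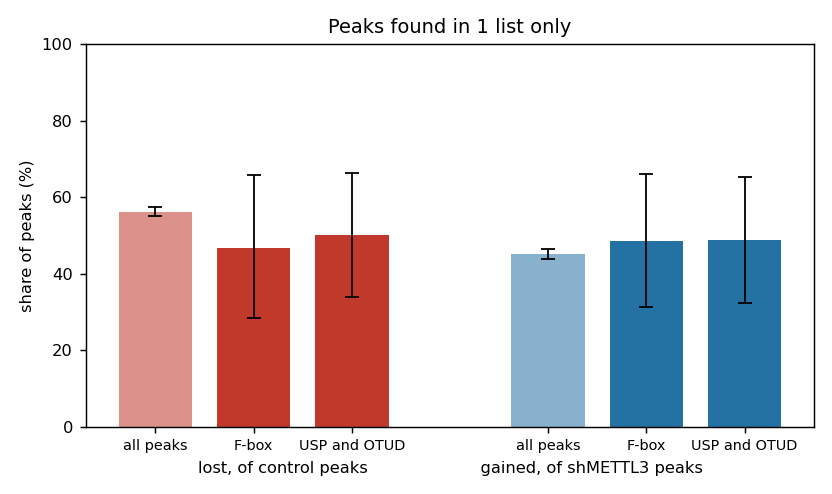
Share of peaks (%) found in 1 list only, for all peaks, F-box mRNAs and USP and OTUD mRNAs. Bars are the share and whiskers the 95% exact binomial interval over peaks. The F-box (46.7% lost, 48.6% gained) and deubiquitinase (50% lost, 48.7% gained) intervals include the values of all peaks, 56.2% lost and 45.2% gained.

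Counted by gene, 26 of the 50 members with a control peak lost at least 1, against 64.7% of all such genes, and 33 of the 53 members with a shMETTL3 peak gained at least 1, against 52.9%. In control cells only, 14 members had peaks (20.9% of 67, 11.9 to 32.6%, against 32.4% of all genes). In METTL3-depleted cells only, 17 had peaks (25.4%, 15.5 to 37.5%, against 19.9%). The interval for control-only genes ended just above the whole-list value, so the 2 were not separated clearly. The other 36 members had peaks in both lists. In 16 of these every peak overlapped one of the other list (23.9% of 67, against 23.0% of all genes). In 15 some did (22.4%, against 17.3%). In 5 none did (7.46%, against 7.36%), namely FBXL18, FBXO3, FBXO34, USP13 and USP20.

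**Figure D2:**
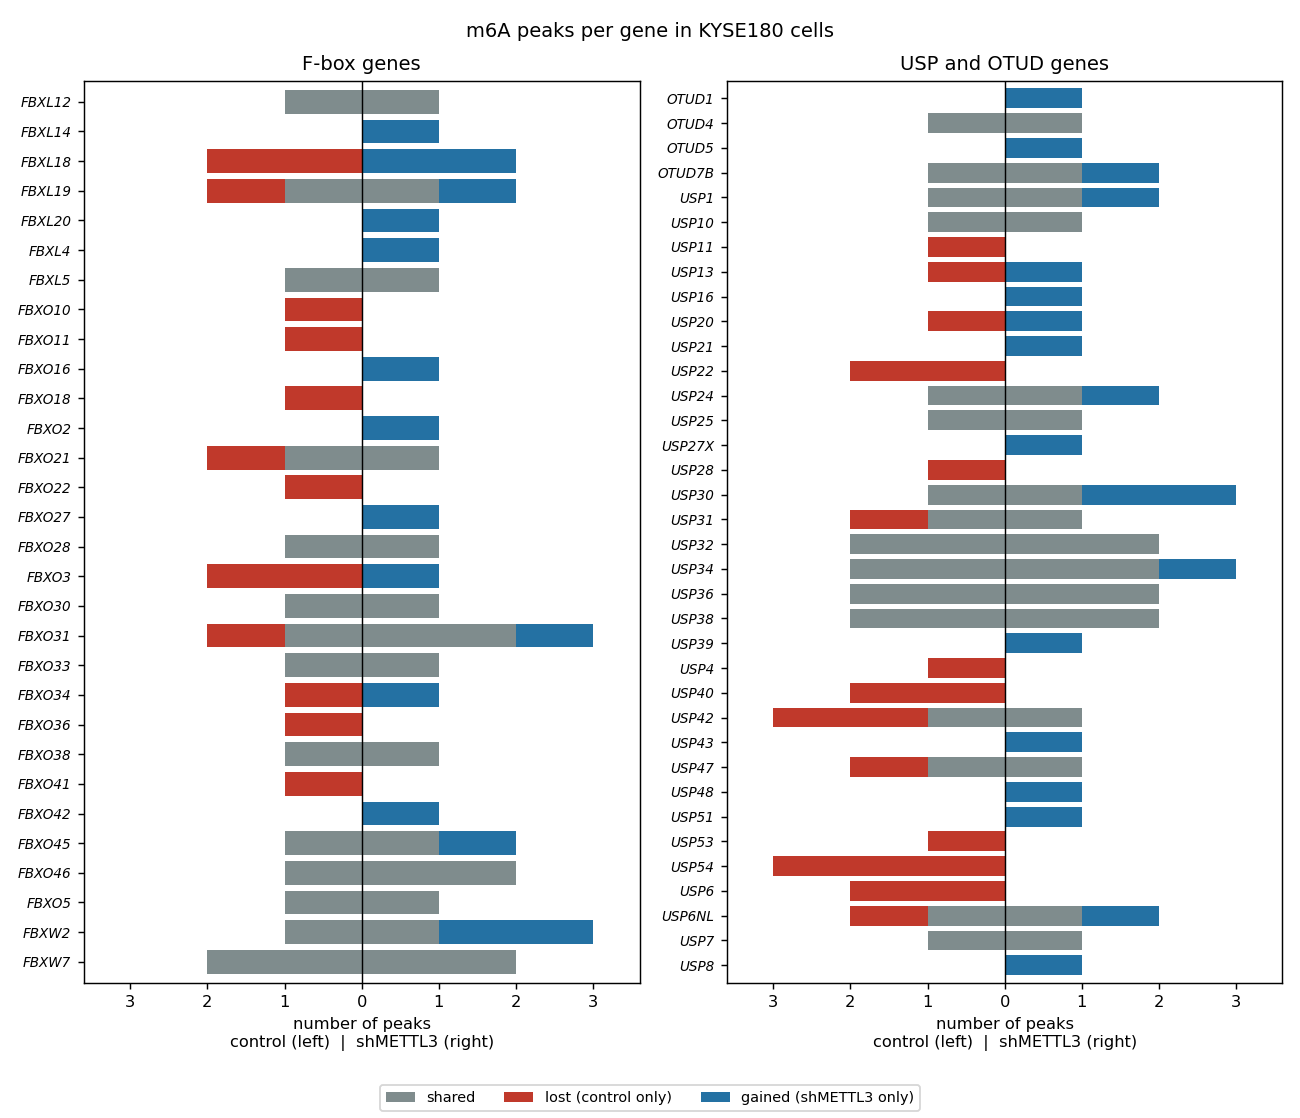
Number of peaks of each of 30 F-box and 36 USP and OTUD genes, with control peaks drawn to the left and shMETTL3 peaks to the right, coloured as lost, shared or gained. USP54 and USP42 had 3 control peaks each, and 14 genes have bars on the left only and 17 on the right only.

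Among F-box genes with peaks in both lists, the highest fold in control cells was that of FBXW7, the receptor that targets cyclin E, MYC and NOTCH and a tumour suppressor. Its coding peak in exon 4 of 14 (chr4:153332338-153333024) had a fold enrichment of IP over input of 334 for control and 43.1 for shMETTL3. Fold enrichment depends on both libraries of a group and is not on a common scale between the lists. The folds of this peak are therefore also given as the share of peaks of the same list with a lower fold. By this measure the FBXW7 peak was above 99.1% of control peaks and above 76.8% of shMETTL3 peaks. For most other pairs the text prints folds only, and the order of these folds need not match the order of the shares. The FBXO28 pair, for example, had folds of 15.5 for control and 14.8 for shMETTL3. It stood above 43.8% of control peaks and above 44.6% of shMETTL3 peaks. A second FBXW7 peak at the end of the mRNA had folds of 8.55 and 6.3, with false discovery rates of 42.3% and 74.1%. Thus both FBXW7 peaks were present in both lists, and both stood lower in the shMETTL3 list.

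FBXO5 (EMI1), an inhibitor of the anaphase-promoting complex, showed the opposite order. Its single peak had identical borders in both lists (chr6:153296042-153296756, coding, exon 2 of 5), with folds of 13.5 for control and 76.0 for shMETTL3. FBXL5, the iron-sensing receptor for IRP2, had folds of 42.7 and 140.0 at its coding peak. FBXO45, which works with the ligase MYCBP2, had folds of 31.4 and 80.0 at its stop codon peak and gained a peak of 29.0-fold in the 3′ UTR. Thus FBXO5, FBXL5 and FBXO45 kept a peak after METTL3 depletion, which stood higher in its own list.

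FBXO31, which targets cyclin D1, had both a lost and a gained peak in its long 3′ UTR. The lost peak (chr16:87362063-87362413) was the strongest lost F-box peak, with a fold of 192, and lay 2658 nt after the stop codon. The nearest FBXO31 peak of the shMETTL3 list lay 500 bp away. A control peak of 2111 bp at 44.3-fold overlapped 2 shorter shMETTL3 peaks of 8.03-fold and 20.5-fold, and the gained peak, at 23.7-fold, lay 3954 nt after the stop codon. Signal in this 3′ UTR was thus divided into different peaks in the 2 lists.

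FBXL19, which binds unmethylated CpG islands through a CXXC domain, had a shared peak at the end of its mRNA with folds of 203 and 117. It lost a coding peak of 58.6-fold (chr16:30941394-30941905) and gained a 5′ UTR peak of 39.1-fold. FBXL12, also among the shared F-box genes with high control folds, had a stop codon peak with folds of 98.1 and 40.3. FBXL18 had 2 lost 3′ UTR peaks (5.36-fold and 20.5-fold), a gained 3′ UTR peak (19.4-fold) and a gained stop codon peak (8.61-fold), the nearest lost and gained peaks being 306 bp apart.

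Peaks in control cells only were found on FBXO10, FBXO11, FBXO18, FBXO22, FBXO36 and FBXO41. FBXO10, which targets BCL2, had 1 coding peak of 71.8-fold (chr9:37541271-37541647). FBXO22, which targets the demethylase KDM4A, had a 3′ UTR peak of 51.2-fold, and FBXO18, a DNA helicase with an F-box now named FBH1, a coding peak of 26.3-fold. FBXO41 had a stop codon peak of 46.5-fold. FBXO11, the receptor for BCL6, had a 3′ UTR peak of 7.26-fold that lies wholly within MSH6 on the opposite strand. The strand of the reads is not stated, so that peak may belong to either gene.

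Peaks in METTL3-depleted cells only were found on FBXL4, FBXL14, FBXL20, FBXO2, FBXO16, FBXO27 and FBXO42. FBXL4, a mitochondrial F-box protein that restrains mitophagy, had the strongest gained F-box peak, at 264-fold in the coding sequence (chr6:99323193-99323603). FBXO16 had a peak of 146-fold and FBXO2, which binds N-glycans on misfolded glycoproteins, one of 88.5-fold, both near the stop codon. FBXL14, which targets SNAI1, had a coding peak of 38.7-fold, FBXL20 a 3′ UTR peak of 14.8-fold, and FBXO27 and FBXO42 stop codon peaks of 7.83-fold and 8.37-fold. Over all gained peaks, 6 of 17 on F-box mRNAs and 4 of 19 on deubiquitinase mRNAs were within 200 nt of the stop codon, against 20.98% of all gained peaks. FBXW11 and FBXO32 had no peak in either list.

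Among the deubiquitinases, USP22 lost both of its control peaks. USP22 is the ubiquitin protease of the SAGA complex, which removes ubiquitin from histone H2B, and USP27X and USP51 are its closest relatives. The USP22 peaks lay in the 3′ UTR, 1 of 1251 bp at 84.4-fold (chr17:20905008-20906258) and 1 of 506 bp at 5.01-fold with a false discovery rate of 100%, and no shMETTL3 peak was found on USP22. USP51 and USP27X had a peak in METTL3-depleted cells only. The USP51 peak (chrX:55512915-55513261) had the highest fold of all members, 600, with its centre 151 nt after the stop codon, and held no GRACU. The USP27X peak was coding and had a fold of 39.6. The stronger USP22 peak overlaps CCDC144NL-AS1 on the opposite strand.

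The 3 USP54 control peaks (29.2-fold, 7.59-fold and 19.9-fold) were all lost, and no shMETTL3 peak was found on this mRNA. USP42, which can deubiquitinate p53, also had 3 control peaks. Its coding peak in exon 15 of 18 was shared, with folds of 54.9 and 5.94, and it lost a coding peak of 9.08-fold and a 3′ UTR peak of 54.4-fold (chr7:6200186-6200875). The shMETTL3 value stood above only 13.1% of its list and had a false discovery rate of 100%. USP28, which stabilises MYC, lost its only peak, a 3′ UTR peak of 5.36-fold. USP4, USP11, USP40 and USP53 also had control peaks only, of 6.45-fold, 21.5-fold, 16.6-fold and 4.53-fold (both USP40) and 28.6-fold. The weaker USP40 peak had a false discovery rate of 100%, and the USP11 peak could not be placed on a protein-coding transcript. Control-only deubiquitinase peaks thus ran from weak to strong, with the stronger ones on USP22 and USP6.

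USP6 had 2 lost peaks and its parent gene USP32 had 2 shared peaks at matching places. USP6 is a hominoid gene that arose in part from USP32, and the mRNAs are similar over the shared part. The USP6 peaks had their centres at -447 nt from the stop codon (chr17:5073846-5074210, 21.2-fold) and at 111 nt (chr17:5076100-5076665, 63.4-fold), and had 93.4% and 93.1% identity with USP32 over 99.7% and 100% of their length. The USP32 peaks had theirs at -477 nt (chr17:58258685-58259109, folds of 188 and 19.6) and at 118 nt (chr17:58256212-58256789, folds of 24.8 and 13.7). The GRACU nearest each centre was the same site in both genes, as the following windows show, the first pair from the coding peaks and the second from the stop codon peaks.
USP32, shared, chr17:58258946-58258966, minus strand: agtaaagaGAACTtggatgcc
USP6, lost, chr17:5073917-5073937, plus strand: agtaagaaGAACTtggatgcc
USP32, shared, chr17:58256394-58256414, minus strand: ccgatagaGAACTttcaggca
USP6, lost, chr17:5076463-5076483, plus strand: ctgatagaGAACTttcaggca
The windows differed at 2 of 21 bases in the coding pair and at 1 of 21 in the stop codon pair. The sources used here do not say how reads that fit both genes were assigned, so the USP6 peaks are uncertain and their part in USP32 signal was not tested. Without USP6, 18 of 38 deubiquitinase control peaks were lost.

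The strongest shared deubiquitinase peak was that of USP25, just after the stop codon (chr21:17250808-17251232), with folds of 244 and 142. USP30, which opposes parkin at mitochondria, had folds of 167 and 20.5 at its stop codon peak. It gained 2 peaks further into the 3′ UTR, of 18.3-fold and of 134-fold (chr12:109525212-109525831), so the stronger USP30 signal lay at the stop codon in the control list and in the 3′ UTR in the shMETTL3 list. USP36, a nucleolar enzyme that stabilises MYC, had folds of 99.9 and 11.2 in the 3′ UTR and of 7.12 and 9.26 in the coding sequence. USP1, which deubiquitinates FANCD2 and PCNA, had folds of 27.3 and 8.38 at a coding peak and gained a 3′ UTR peak of 8.02-fold. USP10 had folds of 32.3 and 26.5 at a coding peak. USP7, the protease of MDM2 and p53, had folds of 7.18 and 13.1, and its peak was shorter in the shMETTL3 list (454 bp against 820 bp).

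All OTUD peaks of the control list were shared. OTUD4 had folds of 21.1 and 54.7, and OTUD7B (Cezanne), which prefers K11-linked chains, folds of 57.6 and 138. OTUD7B also had a gained peak of 3.22-fold, with a false discovery rate of 100%, that lay 175 bp from its control peak. OTUD1 (47.9-fold) and OTUD5 (17.9-fold), which cuts K63-linked chains from TRAF3, had peaks in METTL3-depleted cells only. The other genes with peaks in METTL3-depleted cells only were USP8, which acts on EGFR at endosomes (7.34-fold), USP16, which acts on histone H2A (34.3-fold), USP21 (92.1-fold, chr1:161130691-161131030), USP39 (25.3-fold), USP43 (17.9-fold) and USP48 (10.5-fold). USP39 is a splicing factor without protease activity, and USP6NL, a GTPase-activating protein for Rab proteins, is in the list by name only. Without USP6NL the lost share was 50% and the gained share 48.6%. USP9X, USP14 and OTUD6B had no peak in either list.

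The remaining F-box genes with peaks in both lists were FBXO3, FBXO21, FBXO28, FBXO30, FBXO33, FBXO34, FBXO38, FBXO46 and FBXW2. FBXW2, a WD40 receptor, had a coding peak with identical borders and near-equal folds of 58.1 and 55.2, and gained 3′ UTR peaks of 13.9-fold and 5.08-fold, the latter with a false discovery rate of 100%. FBXO38 had folds of 32.3 and 59.5 and FBXO33 of 75.9 and 32.3, both in the coding sequence, and FBXO28 had 15.5 and 14.8 at the stop codon. FBXO30 had folds of 38.4 and 10.4 over a long coding peak of 1652 bp and 1710 bp. One FBXO46 control peak (36.3-fold) met 2 shMETTL3 peaks (22.3-fold and 8.15-fold), as in FBXO31. FBXO21 kept a 3′ UTR peak with folds of 37.8 and 27.0 and lost one of 22.8-fold further downstream. FBXO3 lost 2 peaks (5.88-fold and 30.9-fold) and gained 1 of 5.85-fold, and FBXO34 lost a coding peak of 5.78-fold and gained a 3′ UTR peak of 4.65-fold, 657 bp away. The FBXO3 control peaks and the FBXO36 peak could be placed only on a transcript other than the canonical one.

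The remaining deubiquitinases with peaks in both lists likewise went in either direction. USP38 had 2 shared coding peaks, with folds of 11.1 and 23.6 and of 5.14 and 43.7. By the share of peaks of the same list with a lower fold, both stood higher in the shMETTL3 list. USP34, which acts on axin in Wnt signalling, had a coding peak of identical borders with folds of 31.3 and 9.54, a peak at the end of the mRNA with 4.09 and 30.2, and a gained coding peak of 28.0-fold. USP47 had near-equal folds of 67.0 and 65.0 in the 3′ UTR and lost a peak of 13.9-fold, but both places overlap DKK3 on the opposite strand. USP31 kept a 3′ UTR peak (49.3-fold and 12.6-fold) and lost a peak of 2121 bp at 53.4-fold across the end of its coding sequence. USP24 had folds of 36.4 and 7.06 in the 3′ UTR, the latter with a false discovery rate of 100%, and gained a peak of 14.8-fold. USP13 lost a peak of 3.36-fold (false discovery rate of 100%) and gained one of 6.67-fold, both in the 3′ UTR. USP20, which acts on HIF-1alpha, lost a stop codon peak of 30.9-fold and gained a coding peak of 87.5-fold.

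**Figure D3:**
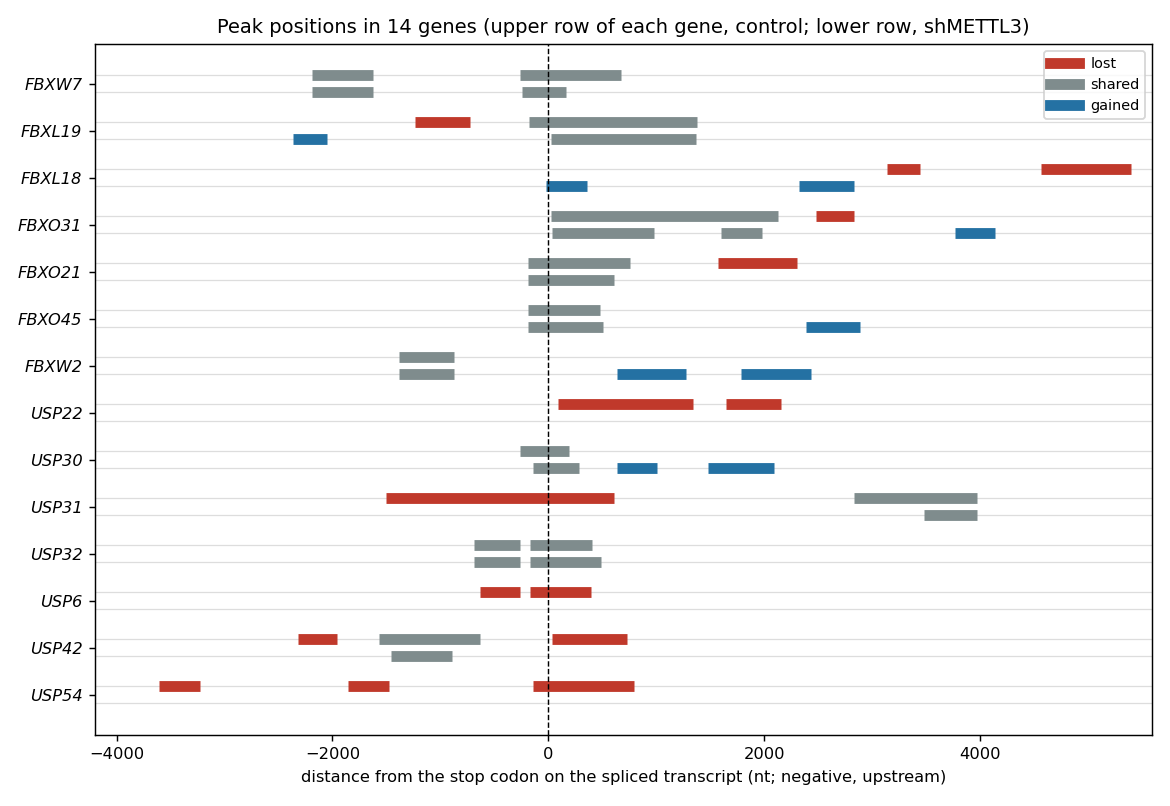
Peaks of 14 of the members as they lie on the spliced mRNA, by distance from the stop codon (nt), with control peaks in the upper and shMETTL3 peaks in the lower row of each gene. USP22, USP6 and USP54 have no peak in the lower row, FBXL18 has 2 lost and 2 gained peaks, and the USP6 and USP32 peaks lie at nearly the same distances.

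Shared peaks differed from lost ones in length and strength. The median length of lost and shared control peaks was 370.5 bp and 865 bp for F-box mRNAs and 429.5 bp and 764 bp for deubiquitinase mRNAs, against 465 bp and 770 bp over the whole list. The score of MACS, −10 times the log10 of its p, reached its limit of 3100 in 30 of 36 shared and 12 of 34 lost member peaks (83.3% and 35.3%), against 62.1% and 41.8% over the list. The lost peaks were thus shorter and had lower scores, and the part of this in the lost calls was not tested. The median fold of control peaks was 37.1 for F-box and 23.3 for deubiquitinase mRNAs, against 18.5 for all control peaks. In the shMETTL3 list the medians were 22.3 and 18.3, against 17.5.

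**Figure D4:**
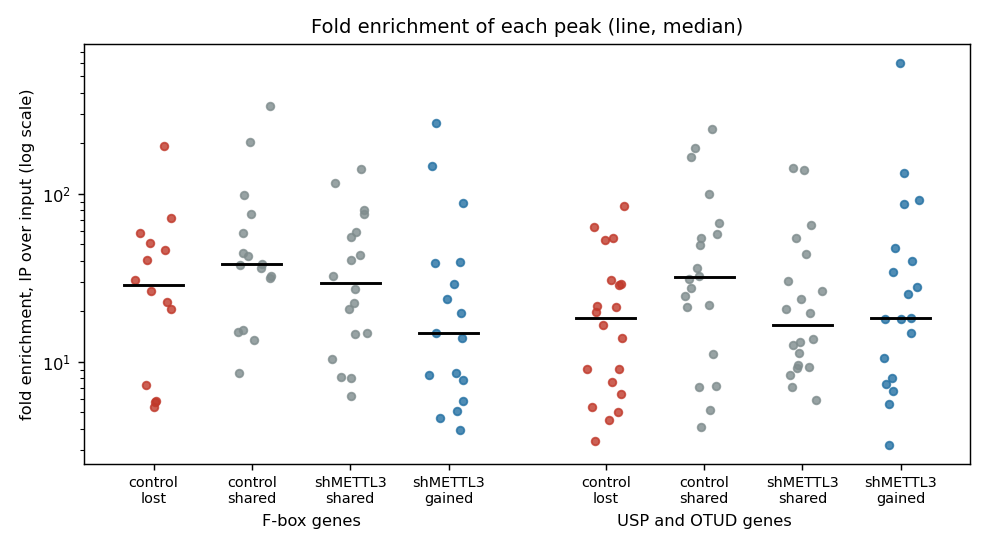
Fold enrichment of IP over input (log scale) of each member peak, by family, list and call, with the median as a line. Folds of lost peaks (medians of 28.6 and 18.3) overlap those of shared control peaks (38.1 and 31.8), and the highest point is the gained USP51 peak at 600.

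The shared peaks formed 38 overlapping pairs, in which 36 control peaks met 38 shMETTL3 peaks. In 25 pairs (65.8%, 48.6 to 80.4%) the shMETTL3 peak stood lower in its list by fold than the control peak did in its own, against 50.3% of all 3450 pairs, and in 13 it stood higher. This was the case in 12 of 18 F-box pairs and in 13 of 20 deubiquitinase pairs. The interval for the 38 pairs holds the 50.3% of all pairs, so a difference from the list was not detectable. It also counts pairs as independent, although 1 control peak of FBXO31 and 1 of FBXO46 entered 2 pairs each. The median standing was above 72.2% of control peaks and above 56.6% of shMETTL3 peaks, against 54.2% and 52.8% over all pairs. The control peaks of these pairs already stood high in their list, and the part of this in the order was not tested. The pairs with the largest drop were those of USP42, USP36, FBXO31, USP24 and FBXO46, and those with the largest rise USP38, USP34 and FBXO5.

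**Figure D5:**
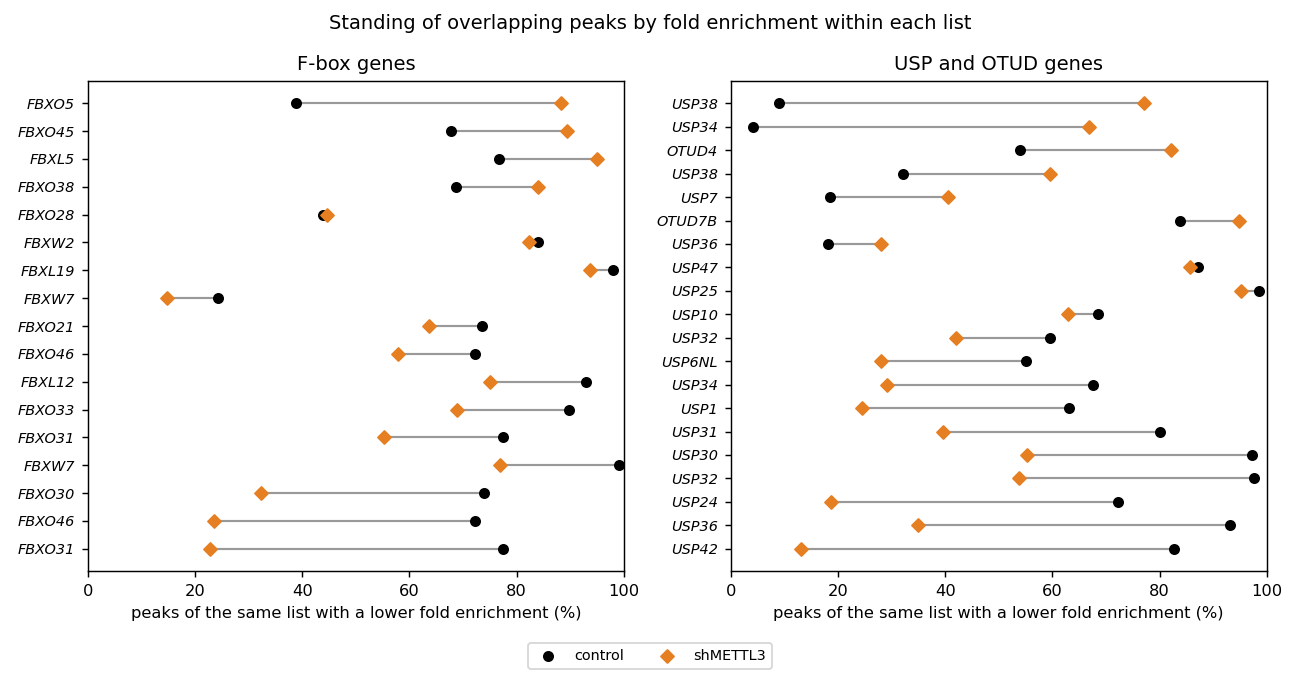
Overlapping peak pairs, with the share (%) of peaks of the same list that have a lower fold enrichment, in control (circles) and shMETTL3 (diamonds). In 12 of the 17 F-box pairs drawn and 13 of 20 deubiquitinase pairs the diamond lies to the left of the circle, and FBXO31 and FBXO46 have 1 control peak in 2 pairs.

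Most peaks of these members lay in the coding sequence or the 3′ UTR. A peak was placed by its centre, and those within 200 nt of the stop codon were counted there. In control cells 5 of 30 F-box peaks (16.7%, 5.64 to 34.7%) and 8 of 39 placed deubiquitinase peaks (20.5%, 9.30 to 36.5%) lay at the stop codon, against 21.8% of all control peaks. This stretch made up 7.58% and 6.04% of the length of these mRNAs. A further 12 F-box and 16 deubiquitinase peaks lay in the 3′ UTR and 12 and 15 in the coding sequence, and only FBXO36 had a 5′ UTR peak. In METTL3-depleted cells the stop codon held 11 of 35 F-box peaks (31.4%, 16.9 to 49.3%) and 10 of 39 deubiquitinase peaks (25.6%, 13.04 to 42.1%), against 21.7%. Of the 14 lost F-box peaks 8 lay in the 3′ UTR, as did 4 of the 16 shared ones, while the coding sequence held 4 and 8. For deubiquitinase mRNAs the 3′ UTR held 9 of 19 placed lost peaks and 7 of 20 shared ones, and the coding sequence 6 and 9. Over the whole list the 3′ UTR held 39.1% of lost and 34.0% of shared control peaks, and the coding sequence 32.9% and 41.4%.

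GRACU was found in 24 of 30 F-box control peaks (80%, 61.4 to 92.3%) and in 28 of 39 deubiquitinase control peaks (71.8%, 55.1 to 85.0%), against 75.3% of all control peaks. Per kb of mRNA, F-box control peaks held 2.88 GRACU and the rest of the same mRNAs 1.71. Deubiquitinase peaks held 2.28 and the rest 2.12. Shared member peaks held it in 33 of 36 cases (91.7%, 77.5 to 98.2%) and lost ones in 19 of 33 (57.6%, 39.2 to 74.5%), against 84.7% and 67.9% over the list. Shared peaks were also longer than lost ones, and the part of length in these shares was not tested. Per kb, shared and lost F-box peaks held 3.42 and 1.73 GRACU, shared and lost deubiquitinase peaks 2.35 and 2.18, and those of the whole list 2.60 and 2.36. In METTL3-depleted cells all 38 shared peaks and 25 of 36 gained ones (69.4%, 51.9 to 83.7%) held GRACU, against 83.2% and 65.9% over the list. The strong lost peaks without it included FBXO36 (40.2-fold), FBXO3 (30.9-fold) and USP20 (30.9-fold), and the strong gained peaks without it USP51 and USP20 (87.5-fold).

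The rest of the SCF pathway showed a similar mixture. Of 32 genes of the SCF core and of the NEDD8 cycle that switches it on and off, 15 had a peak, with 8 of 15 control peaks lost and 8 of 15 shMETTL3 peaks gained (53.3% each, against 56.2% and 45.2% of all peaks). CUL1, the scaffold, had a shared peak at the end of the mRNA with folds of 11.7 and 10.3. It gained a 5′ UTR peak of 40.9-fold and a peak of 29.9-fold that could not be placed on a protein-coding transcript. SKP2, itself an F-box protein, gained a stop codon peak of 6.16-fold, and CCNF, which gave the F-box its name, lost its 3′ UTR peak of 10.8-fold. CAND1, which exchanges F-box proteins on CUL1, had a shared coding peak with folds of 6.41 and 20.1 and lost a stop codon peak of 13.2-fold. COPS5, the protease of the COP9 signalosome that removes NEDD8, lost a coding peak of 29.9-fold and had a shared one with folds of 23.5 and 59.7. SKP1, RBX1 and BTRC had no peak.

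A further list held deubiquitinases and related genes that the name rule does not cover. Of its 37 gene names, which include older names of the same genes, 15 had a peak. Here 10 of 16 control peaks were lost (62.5%, against 56.2% of all peaks) and 8 of 14 shMETTL3 peaks gained (57.1%, against 45.2%). These peaks are few, and a difference from the whole list was not tested. ZRANB1 had 2 shared peaks, with folds of 29.6 and 52.8 in the coding sequence and of 16.7 and 38.5 in the 3′ UTR. UCHL5, a protease of the proteasome, lost a stop codon peak of 63.4-fold and gained a peak of 34.2-fold. The centre of this gained peak could not be placed on a protein-coding transcript of the gene. STAMBPL1, which cuts K63-linked chains, lost a stop codon peak of 66.7-fold. The tumour suppressor BAP1 lost a 3′ UTR peak of 5.52-fold with a false discovery rate of 100%. CYLD, a negative regulator of NF-kappaB, gained a stop codon peak of 18.9-fold, and MYSM1, which acts on histone H2A, a coding peak of 42.5-fold.

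Folds of member peaks ranged in control cells from 5.36 to 334 for F-box and from 3.36 to 244 for deubiquitinase mRNAs, and in METTL3-depleted cells 3.91 to 264 and 3.22 to 600. The annotation holds 62 genes whose name fits the F-box pattern, of which 30 had a peak and 32 had none. FBXO18, the remaining F-box member, is not among them, as the annotation does not hold this older name. It holds 86 that fit the USP or OTUD pattern, of which 36 had a peak and 50 had none, 26 of the 86 being copies of USP17L. The false discovery rate of the member peaks was between 16.7% and 100% in the control list and between 14.8% and 100% in the shMETTL3 list, so single peaks are uncertain. Rates are printed beside single peaks mainly where they reached 100%. Peaks named without a rate had rates of up to 89.3% (the lost FBXO34 peak). In all, 15 member peaks in 9 genes lie over an exon of another gene, 10 of them on the opposite strand. The genes are FBXL18, FBXL19, FBXO10, FBXO11, FBXO31, USP22, USP31, USP47 and USP54. Any of these peaks may belong to the other gene.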

How the data were processed

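The authors deposited 1 list of m6A peaks on mRNAs for each group. They trimmed the reads with cutadapt, aligned them to hg19 with Hisat2 and called peaks with MACS (version not given in the sources used here), comparing IP with input. BWA and CASAVA 1.8 appear in the submitters' processing notes. Each peak carries a deposited score (−10 times the log10 of the MACS p, which stops at 3100), a deposited ratio of IP over input (fold enrichment) and, in percent, the authors' false discovery rate. All were used as they stand, with no normalization between lists. Peak numbers run up to 40550 (control) and 32910 (shMETTL3), so only part of all called peaks is listed. 1 line of each list was not used here. Reads per library are unknown here.

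Distinct peaks were compared by overlap. Starts count from 0 (read so, 2105 control peaks begin with an exon, and 36 if read as counted from 1) and are printed counted from 1. Peak centres were placed on protein-coding transcripts of the listed gene (GENCODE lifted to GRCh37, the canonical one first), which placed 97.1% of each list. Motifs were counted on the spliced strand. Copies of member peaks in other mRNAs were sought with BLAST 2.17.0 (at least 90% identity over at least 50% of the peak). Values are given for the 3 lost, 3 gained and 3 shared peaks of highest fold per family, genes with 3 or more control peaks and a list of well-studied members, and other members named were chosen after their values were seen. Members, lists and rules were chosen with earlier results of these data known. Alternatives changed the overlap, the score and false discovery rate limits, the list length, merging, the stop codon window and the motif. Overlap, placement and motif steps were tested on simulated data. Python 3.11.15, pandas 2.3.3, scipy 1.17.1 and pysam 0.24.0 were used. 1 F-box gene is counted but not reported by name or drawn by name here.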

Additional observations from a re-analysis of the deposited data

How the results depend on the processing

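With 1 IP and 1 input library per group, no replicate could be left out. No paired analysis was possible because each group has a single pair of libraries and no test was run. When only the 50% of peaks with the best score in each list were kept, deubiquitinase peaks were lost in 70% and gained in 70% of cases (14 of 20 each), against 66.2% and 57.9% of all peaks. F-box peaks were lost in 42.9% (9 of 21) and gained in 36.8% (7 of 19), and this F-box lost interval (21.8 to 65.98%) does not hold the whole-list value, unlike that with all peaks kept. Both lists were cut before the overlap, so a peak whose partner fell below the cut also counted as lost or gained. With the lists uncut, 5 of 21 deubiquitinase and 7 of 21 F-box control peaks at the score limit of 3100 were lost, against 1774 of 3828 over the list. For gained peaks the counts were 9 of 19, 7 of 19 and 1136 of 2954. The part of the cut in these shares was not tested. Within the central 100 nt of the peak, GRACU was found in 20% of F-box and 17.9% of deubiquitinase control peaks (24.4% of all), since a shorter stretch holds fewer motifs. The looser RRACH was found in 96.7% and 100% (99.4% of all), so it does not separate peaks. The other alternatives for lost, gained, stop codon and GRACU shares gave values within the interval of the main value, namely an overlap of 50% of both peaks, a distance of up to 500 bp, a false discovery rate of at most 20%, equal list lengths, overlap within a gene, merged peaks, a stop codon window of 100 nt and the genomic sequence. The same held without USP6NL or USP6, which were left out after seeing the data. The depth of the libraries limits every lost or gained call, and peaks of 100% false discovery rate (3 control and 6 shMETTL3 member peaks) are the least certain.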
